A study of Mus musculus with 31 samples.

Results

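C1qb-positive cells are the lung myeloid cells of this study with high Lyz2 that also carried RNA of the complement gene C1qb. The cells were chosen by 2 measured values, and those values are a description and not a finding. A cell was kept where Lyz2, which encodes the lysozyme of monocytes and macrophages, reached 1000 FPKM, a fragment count scaled to transcript length and library size. Of 31 cells, 20 passed this minimum, and the other 11 lay below it. Of the 20, 6 had C1qb at 1 FPKM or more and are called C1qb-positive, and 14 lay under 1 FPKM and are called C1qb-negative. The C1qb-positive share was 30% of the Lyz2-high cells, with an exact Clopper-Pearson 95% interval of 11.9% to 54.3% that covers counting error over cells only.

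All cells belonged to a single group. They came from the right lung lobes of 10-week-old adult mice of the B6 background with the Csf1r-GFP genotype, a reporter in which regulatory sequence of the Csf1r gene drives green fluorescent protein. The mice had undergone a sham thoracotomy, in which the chest is opened and no organ is removed, 7 days before. Cells were sorted as CD45+, CSF1R-GFP+ and F4/80+, with Ly6G named in the labels without a sign, then captured singly on a Fluidigm C1 chip and amplified from polyadenylated RNA. Cells are named here by their chip position. The labels name no animal, and no unoperated or resected group was analysed here. The 20 cells therefore count as 1 sample, no test between the classes was made, and "higher" and "lower" below describe these cells alone.

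C1q is the recognition protein of the classical complement pathway, assembled from the chains encoded by C1qa, C1qb and C1qc, which lie side by side in the genome. Tissue macrophages are its main source, and circulating monocytes make little of it. In the lung, C1q marks interstitial macrophages of the tissue space more than the alveolar macrophages of the airspace, and monocytes entering from blood are classed by Ly6c2 and Ccr2 or by their absence. Macrophages are also known for antigen presentation on MHC class II, uptake through scavenger and lectin receptors, and handling of lipid and iron taken up with dead cells.

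The promoters of the split gene and of genes with no overlap between the classes are shown because they carry the contrast described here. They are RefSeq sequences of the GRCm38.p6 build, each of 300 bases, from 250 before the transcription start to 50 after it, 5′ to 3′ on the strand of the gene. C1qb lies at chr4:136886151-136886450 on the minus strand, and C1qc at chr4:136892865-136893164 on the same strand. Mgl2, high in C1qb-positive cells, lies at chr11:70130107-70130406 on the plus strand, and Clec4e, high in C1qb-negative cells, at chr6:123289822-123290121 on the minus strand. Capitals mark matches to the motifs named after the sequences.
C1qb: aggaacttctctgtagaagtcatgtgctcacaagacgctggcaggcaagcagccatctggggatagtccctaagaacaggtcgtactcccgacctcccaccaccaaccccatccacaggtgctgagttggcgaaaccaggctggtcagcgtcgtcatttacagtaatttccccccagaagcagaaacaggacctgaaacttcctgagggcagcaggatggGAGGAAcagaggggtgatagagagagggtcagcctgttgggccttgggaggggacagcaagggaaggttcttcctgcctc
C1qc: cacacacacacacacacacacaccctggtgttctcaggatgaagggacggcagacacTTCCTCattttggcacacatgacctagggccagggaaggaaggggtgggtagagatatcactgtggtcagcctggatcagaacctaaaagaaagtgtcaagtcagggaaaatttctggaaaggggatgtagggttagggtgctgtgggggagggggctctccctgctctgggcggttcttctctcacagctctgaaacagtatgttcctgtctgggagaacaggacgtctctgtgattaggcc
Mgl2: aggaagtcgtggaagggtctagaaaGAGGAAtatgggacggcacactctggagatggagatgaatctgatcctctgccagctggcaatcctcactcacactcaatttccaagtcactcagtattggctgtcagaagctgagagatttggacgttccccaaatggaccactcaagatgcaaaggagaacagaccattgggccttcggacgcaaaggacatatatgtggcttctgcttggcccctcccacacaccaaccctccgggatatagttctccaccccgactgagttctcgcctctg
Clec4e: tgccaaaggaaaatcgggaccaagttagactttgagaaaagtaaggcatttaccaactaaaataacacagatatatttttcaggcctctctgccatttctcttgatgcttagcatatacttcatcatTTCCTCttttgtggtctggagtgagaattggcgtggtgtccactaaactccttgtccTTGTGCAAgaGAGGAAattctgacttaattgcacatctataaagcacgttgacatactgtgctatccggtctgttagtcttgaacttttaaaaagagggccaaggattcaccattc

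Of 4 motifs searched on both strands, the PU.1 core GAGGAA, bound by the myeloid master factor that Spi1 encodes, was found in all 4 promoters. It occurred once in C1qb, C1qc and Mgl2 and at 2 places in Clec4e, and 28.3% of 32851 promoters of this length held it. A C/EBP motif, TTGCNNAA, was found in Clec4e alone among the 4 and was held by 10.8% of all promoters. The MAF half-site TGCTGAC, held by 4.67% of all promoters, and an NF-kappa B motif (GGG, any 2 bases, TT, any base, CC), held by 4.79%, had no match in these windows. Promoters of Cd81 and S100a4 were searched as well, which made 6 in all: Cd81 held none of the motifs and S100a4 held 1 PU.1 core. The 4 shown were picked after the matches were seen, and a match is a description and not a binding site.

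The split was wide. Among the 6 C1qb-positive cells C1qb ranged from 3729 FPKM in cell C7 over a median of 5064 to 13306 FPKM, and the highest C1qb-negative cell, H4, had 0.63 FPKM. C1qa and C1qc, which the rule did not use but which belong to the same protein, reached 1 FPKM in all 6 C1qb-positive cells. C1qa was listed at 0 in all 14 C1qb-negative cells, and C1qc passed 1 FPKM in 2 of them, at no more than 2.13 FPKM. On the Lyz2 side, C7 was the member closest to the minimum with 1229 FPKM, followed by the C1qb-negative cell D4 with 4075 FPKM, and the highest cell left out, D10, had 553 FPKM. One cell left out by Lyz2, F11, carried C1qb at 258 FPKM with Lyz2 listed at 0.

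**Figure D1:**
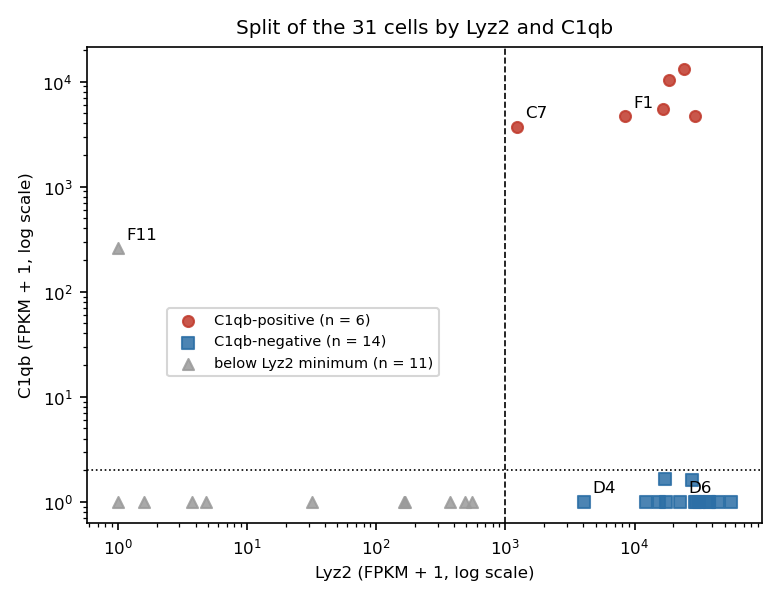
Lyz2 (x axis, FPKM + 1, log scale) against C1qb (y axis, FPKM + 1, log scale) in each of the 31 cells, with the Lyz2 minimum of 1000 FPKM as a dashed line and the C1qb minimum of 1 FPKM as a dotted line. The 6 C1qb-positive cells sit at 3729 FPKM of C1qb or more, the 14 C1qb-negative cells at 0.63 FPKM or less, and cell F11 stands alone with C1qb and no Lyz2.

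Library depth and quality overlapped between the classes. Estimated read counts ran from 767318 to 4059833 in C1qb-positive cells (median 2177838) and from 521492 to 3526674 in C1qb-negative cells (median 1433691). A median of 2445.5 and 2415 genes reached 1 FPKM, and mitochondrial genes took a median of 2.04% and 2.17% of counts. Of the sort genes, Csf1r reached 1 FPKM in all 20 cells, and Ptprc, which encodes CD45, in 5 of 6 and 14 of 14. Ptprc had medians of 202 and 501 FPKM. Adgre1, which encodes F4/80, was present in 6 of 6 and 9 of 14, at medians of 196 and 26.7 FPKM. Ly6g was listed at 0 in every C1qb-positive cell and was present in 7 of 14 C1qb-negative cells, at up to 115 FPKM.

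Of the given markers, C1qa, C1qb and C1qc were high in all 6 C1qb-positive cells, and Mrc1, the mannose receptor CD206, was present in 5 of 6. Mrc1 had a lowest value of 0.22 FPKM in C7, a median of 126 and a highest of 1887 FPKM in F1. Among C1qb-negative cells only D6 carried it, at 174 FPKM. Of the 11 genes on an interstitial macrophage list other than the C1q genes, F1 held 9 and the other 5 cells 4 or 5, while no C1qb-negative cell held more than 2. Folr2 and Stab1, receptors of perivascular resident macrophages, were found at 1262 and 2737 FPKM in F1 and at less than 1 FPKM in the other 5. Among C1qb-negative cells, D6 had Stab1 at 85.6 FPKM. Cd163 was found in no Lyz2-high cell. Of 12 alveolar macrophage genes, 9 were found in none of the 20 cells, Marco and Pparg among them. The members that were seen differed in direction: Chil3, a chitinase-like protein, was present in 1 of 6 cells at 6.73 FPKM and in 11 of 14 at up to 12025 FPKM, whereas the lipase gene Lpl was present in all 6 at up to 919 FPKM and was higher by 3.32. The summed level of this list had a median of 28.5 FPKM against 870 FPKM. Where a C1qb-negative cell carried Chil3, nearly all of this sum was Chil3, as in C11 with 12025 of 12027 FPKM. Chil3 also stands on the classical monocyte list used below, so this gap does not describe alveolar macrophage genes as a group.

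Across all genes other than the C1q genes, 5738 were present at 1 FPKM or more in at least 3 of the 20 cells. The difference between the classes is given throughout as the mean of log2(FPKM + 1) in C1qb-positive cells minus that in C1qb-negative cells, a scale that understates the change of low genes. A gene is called higher or lower here at a difference of 2 or more, which is 4-fold between means of log2 values. Cells listed at 0 lower those means, so the difference also reflects how many cells carry the gene. By this rule 624 genes, 10.9%, were higher in C1qb-positive cells and 557, 9.71%, were lower, and the median difference was -0.02. The filter of 3 cells took called genes from the high side only: without it 747 genes were higher and still 557 lower. The counts move with the pseudocount: with 10 in place of 1 they were 191 and 181. Their balance moves with the Lyz2 minimum: at 100 FPKM 814 genes were higher and 441 lower, and at 10000 FPKM 553 and 812. The cells added at 100 FPKM had a coding share, the counts on nuclear protein-coding genes, of 32.7% to 61.4%. In the 20 cells this share was 87.4% or more. Only 6 genes, 0.105%, had every C1qb-positive cell above every C1qb-negative cell, and 4 genes, 0.0697%, had every one below. Of 201 genes named by a rule and past a difference of 2, 134 stayed past it when each of the 20 cells was left out in turn. For those described below that did not, the difference nearest to 0 is given with the cell whose omission gave it, and several had more than 1 such cell. Higher and lower members of a list are given below out of all its matched genes. A member not present in 3 cells was not counted as either. The background shares are over genes that passed this filter, so they do not compare directly with those counts.

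The 6 genes without overlap on the high side were Cd81, Mgl2, Ms4a7, Cd9, Cd72 and Col14a1. Cd81 and Cd9 encode tetraspanins, membrane proteins that organise other receptors. Cd81 (ENSMUSG00000037706, chr7:143052739-143067934) ran from 184 FPKM over a median of 537 to 1750.0 FPKM and was listed at 0 in all 14 C1qb-negative cells, a share of 0 for which counting error over 14 cells alone has an exact upper limit of 23.2%. Cd81 is described because of this pattern, so that limit does not bound the share of such cells that express it. Cd9 was also present in 13 of 14 C1qb-negative cells, but all 14 lay at 0.91 to 83.2 FPKM (median 27.5) against 154 to 2989 FPKM (median 299.9), a difference of 4.37. Ms4a7 (ENSMUSG00000024672), a tetraspan membrane protein of tissue macrophages, had 701 to 1890.2 FPKM (median 1174) and passed 1 FPKM in 2 C1qb-negative cells, E12 and H4, at no more than 350.0 FPKM.

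Mgl2 (ENSMUSG00000040950), the galactose-binding lectin CD301b, was present in 6 of 6 cells but spanned 3.73 FPKM in C7 to 2136 FPKM in H5. Cd72, a lectin-like inhibitory receptor better known from B cells, reached 0.51 FPKM in F1 and between 138 and 1468 FPKM in the other 5. Both genes were listed at 0 in all C1qb-negative cells. Col14a1, which encodes a fibril-associated collagen, was found at smaller levels, from 0.15 to 223 FPKM with a median of 41.6. Fibroblast markers were near 0: 6 of 7 were found in no Lyz2-high cell, and no cell held more than 4.76 FPKM of their sum.

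On the low side, S100a4 (ENSMUSG00000001020), a calcium-binding protein of motile cells, ran from 623 FPKM over a median of 4565 to 10444 FPKM in C1qb-negative cells. In C1qb-positive cells it did not exceed 49.5 FPKM, a difference of -9.88. Clec4e (ENSMUSG00000030142), the glycolipid receptor Mincle, was present in 14 of 14 C1qb-negative cells at 94.5 to 1872 FPKM and in 1 of 6 C1qb-positive cells, B4, at 1.12 FPKM. The other members of this set were the ribosomal protein gene Rpl37a, at a median of 1802 against 4102 FPKM and a difference of -1.49, and Gm9843, at 712 against 1596. Gm9843 is annotated as a processed pseudogene and may share reads with a coding gene, so its level is uncertain.

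Among protein-coding genes present in at least 75% of the cells of the higher class, the 15 with the largest differences on the high side were Pf4, Tmem176a, Cd81, Ms4a7, H2-Aa, Mt1, Mgl2, H2-Eb1, Hspa1a, Slamf9, Cd72, Egr1, Aif1, Rgs10 and Cd74. Pf4, the chemokine CXCL4 known from platelets and resident macrophages, had a median of 2418 FPKM and a highest value of 21061 FPKM in F1, with 0 in C7 and in all C1qb-negative cells. Platelet and erythroid markers were at 0 throughout, 8 of 8 in every cell. Mt1, a metal-binding metallothionein, had a median of 4904 FPKM and was present in 4 of 14 C1qb-negative cells, at up to 1932 FPKM. Tmem176a, a membrane protein of antigen-presenting cells, was present in 6 of 6 and, among C1qb-negative cells, in D6 alone, at 839 FPKM. Each of the 6 cells carried 12 to 15 of these genes, D6 carried 7, and the other C1qb-negative cells 0 to 5.

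The 15 genes at the other end were Plac8, S100a4, S100a6, Clec4e, Tnfaip2, Hp, Plaur, Chil3, Gngt2, Tmsb10, Il1b, Mgst1, Mrpl33, Gsr and Cytip. Plac8, a gene of circulating monocytes, was listed at 0 in all 6 C1qb-positive cells and present in 13 of 14 others, with a median of 4147 FPKM. D6 was the C1qb-negative cell without it. Hp, the haemoglobin-binding haptoglobin, did not exceed 0.22 FPKM in C1qb-positive cells and had a median of 589 FPKM in the others. Il1b, the inflammatory cytokine interleukin 1 beta, had a median of 123 FPKM against 5488 FPKM, and its ranges overlapped. C1qb-positive cells carried 1 to 6 of these genes and C1qb-negative cells 13 to 15, apart from D4 with 8 and D6 with 10.

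Classical monocyte genes were low as a group. Of 11 listed genes 10 were lower and none was higher, with a median difference of -5.86 against -0.02 over all genes. Ly6c2, the Ly6C antigen of inflammatory monocytes, was listed at 0 in all 6 C1qb-positive cells and present in 10 of 14 others, with a median of 1544 FPKM. Vcan, which encodes the matrix proteoglycan versican, and Ms4a4c were also at 0 in every C1qb-positive cell. Fn1, which encodes fibronectin, had 5.71 FPKM at most, against a median of 309 FPKM. Ccr2, the receptor that brings monocytes out of bone marrow, was the exception: 4 of 6 and 12 of 14 cells carried it, with medians of 457 and 219.6 FPKM. Within the C1qb-positive cells it was at 0 in C6 and F1 and between 222 and 754 FPKM in the other 4. Of 10 nonclassical monocyte genes 4 were lower and none was higher, and 6 of the 10 passed the filter. Cx3cr1, also known from nonclassical monocytes, is not on this list and was higher, as described below.

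Surface receptors were described over 158 genes in 9 lists. Of these, 23 were found in none of the 20 cells, 111 passed the filter of 3 cells, 31 were higher and 22 were lower. The background of 10.9% and 9.71% was not on an equal footing, since receptors that passed were present in a median of 9 cells and all genes in a median of 6. Leaving out any 1 cell moved these counts to between 28 and 36 and between 21 and 25. The 22 lower members were 13 with a Lyz2 minimum of 100 FPKM, which added cells with low coding shares. They were 7 with a pseudocount of 10 and 3 with counts thinned to equal depth. The 31 higher members were 12 with thinned counts.

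MHC class II and costimulation held the most higher members of any receptor list, 9 of 15, with none lower and a median difference of 3.11. H2-Aa, the class II alpha chain, had a median of 15676 FPKM against 1.08 FPKM and a difference of 9.03. Cd74, the invariant chain that guides class II through the cell, had a median of 42499 FPKM against 522 FPKM. H2-DMa and H2-DMb1, which load peptide, were higher by 4.01 and 2.92. Without B4 the difference of H2-DMb1 was 1.97. The costimulatory ligand Cd86 and the maturation marker Cd83 were higher by 3.11 and 4.70, and H2-Ab1, H2-Eb1 and Cd72 made up the rest. For H2-Aa, H2-Eb1 and Cd74 the classes overlapped through 3 cells. F1 had H2-Aa at 823 FPKM, H2-Eb1 at 0.32 FPKM and Cd74 at 1279.7 FPKM, the lowest of the C1qb-positive cells. D6 and F10, both C1qb-negative, had H2-Aa at 14316 and 12594 FPKM.

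C-type lectins, which bind sugars and damaged-cell ligands, divided by gene: 6 of 15 were higher and 2 lower, with a median difference of 0.74. Besides Mgl2 and Mrc1, the higher members were Clec4a2, Clec4a3, Clec4b1 and Clec12a, of which Clec4a2 and Clec12a are known as inhibitory receptors. Clec4a2 had a median of 511 FPKM and passed 1 FPKM in 5 of 6 against 5 of 14 cells. Clec4a3, Clec4b1 and Clec12a had differences of 2.29, 4.29 and 2.53. Clec4a3 had 1.82 without H5, and Clec12a had 1.86 without B4. The lower members were the activating pair Clec4e and Clec4d. Clec4d, the Mincle partner MCL, was listed at 0 in all 6 C1qb-positive cells and present in 10 of 14 others, with a median of 232 FPKM.

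Fc receptors and their adaptors, which read antibody on targets, had 4 of 16 members higher and 3 lower, with a median of 0.07. Fcgr3, Fcgr2b and Fcgr1 were higher by 3.03, 3.07 and 2.15, and Sirpa, the receptor for the CD47 signal of living cells, by 2.51. Fcgr1 had a difference of 1.45 without H5. Fcgr3 had medians of 1497 and 445 FPKM. The inhibitory receptors Pirb and Cd300a had differences of -2.73 and -2.74, with medians of 53.4 against 124 FPKM and 0.635 against 21.7 FPKM. The difference of Pirb was -1.97 without C6. Trem1, an activating receptor of inflammatory myeloid cells, was present in 1 of 6 and 7 of 14 cells.

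Toll-like and other pattern receptors had no higher member and 4 lower of 15. Tlr2, the receptor for bacterial lipoproteins, was present in 4 of 6 cells with a median of 147 FPKM and in 14 of 14 with a median of 504 FPKM. Tlr13, Nod1 and the formyl peptide receptor Fpr2 were listed at 0 in all 6 C1qb-positive cells and present in 5, 6 and 5 of 14. Tlr13 had a difference of -1.71 without H4, and Fpr2 one of -1.98 without C8. Cd14, the lipopolysaccharide co-receptor, did not reach the difference of 2: its medians were 1193 and 2785 FPKM.

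Scavenger and efferocytosis receptors, which take up lipoproteins and dying cells, had 3 of 18 members higher and 2 lower. Of the 18, 9 passed the filter. Cd36 and Axl, a fatty-acid scavenger and a receptor kinase for dying cells, were present in 3 and 4 of 6 cells, and the difference of Axl was 3.48. Cd68, a glycoprotein of macrophage lysosomes, was present in 6 of 6 and 11 of 14 cells and higher by 3.17. Cd36 was at 0 in all 14 C1qb-negative cells and reached 1119.8 FPKM at most. Its difference of 2.94 was 1.499 without H5. Msr1 and Scarb1, both lipoprotein receptors, were at 0 in all 6 C1qb-positive cells and present in 9 and 5 of 14. Mertk, a relative of Axl, was present in 2 of 6 cells at up to 32.6 FPKM and in none of the 14.

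Among chemokine receptors, Cx3cr1 was the only one of 12 that was higher. This fractalkine receptor, known from nonclassical monocytes and resident macrophages, was present in 6 of 6 cells at 18.8 to 695 FPKM (median 114) and in 3 of 14 others at up to 160.2 FPKM. Of 16 complement and purinergic receptors, C3ar1, the receptor for the C3a fragment, was higher by 3.58, with 4 of 6 and 2 of 14 cells positive. Cytokine and growth factor receptors had 2 of 26 members higher, Tgfbr1 and Il10ra, by 2.83 and 2.01. Without B4 the difference of Tgfbr1 was 1.78, and without C6 that of Il10ra was 1.04. The 4 lower members included Il17ra, at 0 in all 6 cells and present in 8 of 14, Ifngr1, at a median of 1.48 against 235 FPKM, and Csf2rb. The fourth, Il1rn, encodes a secreted antagonist and not a receptor, and its difference of -2.21 was -1.64 without F10. Csf1r itself had medians of 342 and 103 FPKM and a difference of 0.97. Of the other sort genes, Adgre1 was higher by 2.87, and Ptprc and Ly6g were lower, with differences of -2.31 and -2.12. Ptprc had -1.01 without C6, and Ly6g had -1.76 without E7.

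Integrins and adhesion molecules had 5 of 25 members higher and 7 lower. On the high side these were the tetraspanins Cd9, Cd81 and Cd63, the sialic acid receptor Cd33 and the integrin chain Itgb5. Itgal, the alpha chain of LFA-1, was listed at 0 in all 6 C1qb-positive cells and present in 12 of 14 others with a median of 121 FPKM. Itga4 and Itgb7, which pair in a homing integrin, were present in 1 and 0 of 6 cells and in 12 and 9 of 14. Cd44, the hyaluronan receptor, was present in 5 of 6 and 14 of 14 cells. Its medians were 41.9 and 456 FPKM, a difference of -3.83.

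**Figure D2:**
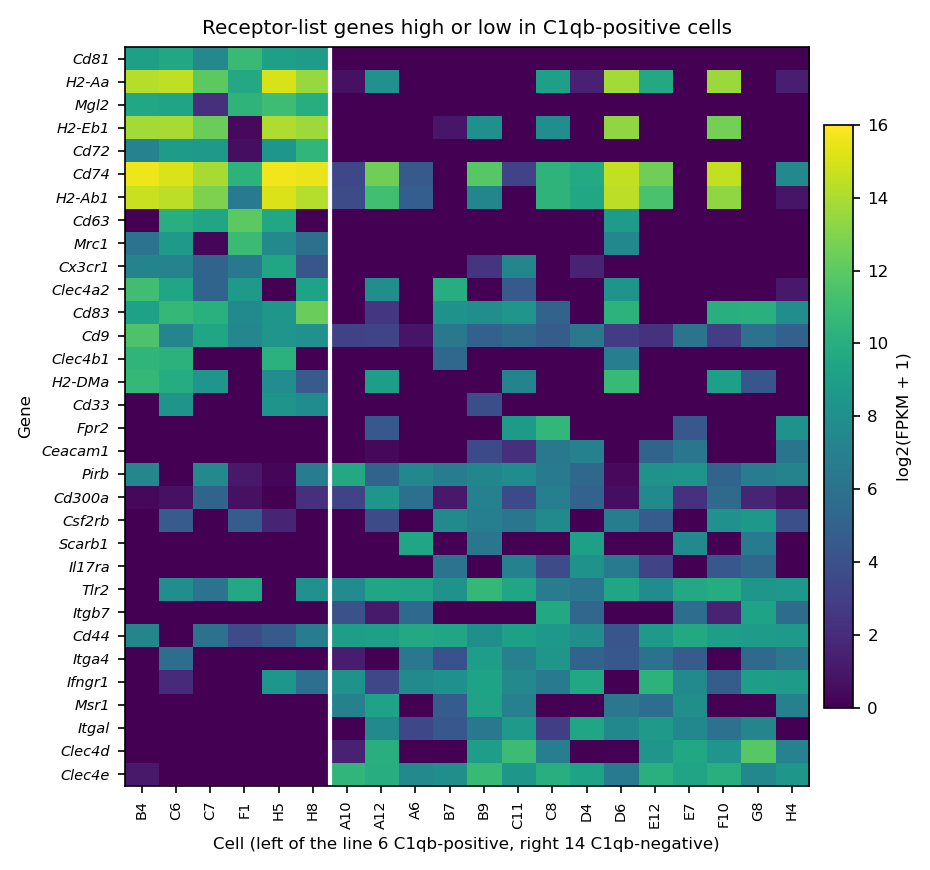
log2(FPKM + 1) of receptor-list genes (rows) in each Lyz2-high cell (columns), with the 6 C1qb-positive cells left of the white line and the 14 C1qb-negative cells right of it. The rows are, of the genes reported here, the 16 with the largest differences in each direction, so the contrast is by choice; a reader should see that Cd81 is dark in all 14 C1qb-negative cells, that F1 lacks H2-Eb1, and that D6 carries H2-Aa and Mrc1.

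Transcription factors, the proteins that set which genes are read, were described over 123 genes in 5 lists. Of these, 18 were in no cell, 90 passed the filter, 15 were higher and 22 were lower, beside 10.9% and 9.71% over all genes. Those that passed were present in a median of 8 cells. The balance was not stable. A Lyz2 minimum of 100 FPKM, which added cells with low coding shares, gave 20 higher and 9 lower. With a pseudocount of 10 the counts were 7 and 5, and with thinned counts, on their smaller scale, 1 and 1. Of 27 lineage factors, 2 were higher and 3 lower, with a median of 0.00. Spi1, which encodes PU.1, was present in 6 of 6 and 13 of 14 cells at medians of 416 and 531 FPKM, a difference of -0.39. Cebpb, a factor of monocytes and inflammation, was present in all 20 cells with medians of 402 and 884 FPKM. Its difference was -2.14, and -1.05 without B4. Irf8, a factor of monocyte and dendritic lineages, was present in 4 of 6 and 4 of 14 cells and higher by 3.32, and Cebpd was higher by 2.83, or by 1.95 without H5. Irf5, an inflammatory interferon regulatory factor, had a difference of -2.33, which was -1.48 without C6. Id3, a helix-loop-helix factor of some resident macrophages, was at 0 in all 6 C1qb-positive cells and present in 7 of 14.

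Of 24 macrophage identity factors 3 were higher and 1 lower. Mef2c, known from microglia and other resident macrophages, was present in 5 of 6 and 4 of 14 cells, with a median of 289 FPKM and a difference of 4.83. Maf, which encodes c-MAF, was present in 3 of 6 cells, C6, F1 and H5, at 61.6 to 132 FPKM. E12 was the single C1qb-negative cell with Maf, at 4.3 FPKM. Nr3c1, the glucocorticoid receptor, was higher by 3.69 and present in 4 of 6 and 2 of 14 cells. Bhlhe40, a repressor of the basic helix-loop-helix family, did not exceed 0.78 FPKM in C1qb-positive cells and was present in 6 of 14, with a difference of -2.31 that was -1.73 without D4. Pparg and Gata6, factors of alveolar and peritoneal macrophages, were found in none of the 20 cells.

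Factors of the NF-kappa B, STAT and IRF families had no higher member and 4 lower of 22. Of the 22, 18 had a difference below 0, and the median was -1.0. Nfkb1, a subunit of NF-kappa B, was present in C6 alone among the 6 cells, at 73.5 FPKM, and in 11 of 14 others with a median of 168 FPKM. Rela and Rel, further subunits, had differences of -2.86 and -2.37, and the regulator Nfkbiz one of -2.58. Rel had -1.54 without H5, and Nfkbiz had -1.73 without B4. The feedback inhibitor Nfkbia, by contrast, was present in all 20 cells with a difference of -0.68.

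The KLF, HIF, MYC and stress factors had 3 of 28 members higher and 8 lower. Hif1a, the oxygen-sensing factor that drives glycolytic genes, was present in H5 alone among the 6 cells, at 31.9 FPKM. It was present in 13 of 14 C1qb-negative cells with a median of 148 FPKM, and its difference was -6.09. Nfe2l2, which encodes the antioxidant factor NRF2, was present in 3 of 6 and 14 of 14 cells, with a difference of -4.58. Klf4, a factor of monocyte maturation, was present in 1 of 6 and 9 of 14 cells, and Nfil3 in 0 of 6 and 7 of 14. Tsc22d3, the glucocorticoid-induced GILZ, was present in 5 of 6 and 4 of 14 cells and higher by 5.26, and the repressor Prdm1 was higher by 2.23, or by 1.32 without H8.

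AP-1 and immediate early factors, which respond within minutes to stimulation, went both ways with 7 of 22 higher and 6 lower. Egr1 was present in 6 of 6 cells at 64 to 465 FPKM and, among the others, in B7 alone at 65.6 FPKM. Fos, Jun, Junb, Jund and Fosb were higher by 2.87, 2.79, 2.71, 2.03 and 2.18, and the antiproliferative gene Btg2 by 4.74. Jund had a difference of 1.62 without F1 and Fosb one of 1.60 without H8. Nr4a1, Nr4a2, Fosl2 and Csrnp1 were lower, with differences of -2.35, -2.39, -2.29 and -3.49. Nr4a1 had -1.66 without F1, and Fosl2 had -1.88 without B4. The small MAF proteins Mafg and Mafk, which pair with NRF2, were at 0 in all 6 cells and present in 8 and 7 of 14, and Mafk had a difference of -1.91 without C8. Several of the higher genes are also known to respond to tissue dissociation. On a list of 20 stress and dissociation genes, 19 passed the filter. Of these, 11 were higher and none lower, beside 10.9% and 9.71% over all genes. C1qb-positive cells carried 14 to 18 of them (median 16) at a summed 10291 to 34187 FPKM (median 15952), and C1qb-negative cells 9 to 17 (median 11) at 5383 to 15657 FPKM (median 9604). Hspa1a was present in 6 of 6 and 2 of 14 cells, and its near-identical copy Hspa1b, with which it shares reads, in 4 of 6 and 2 of 14. The part of handling in these differences was not tested.

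Metabolic genes were described over 231 genes in 9 lists. Of these, 25 were in no cell, 166 passed the filter, 27 were higher and 36 were lower, beside 10.9% and 9.71% over all genes. Those that passed were present in a median of 11 cells. With a Lyz2 minimum of 100 FPKM, which added cells with low coding shares, the balance turned to 37 higher and 18 lower. The counts were 8 and 17 with a pseudocount of 10, and 59 were lower with a pseudocount of 0.1. With thinned counts, on their smaller scale, they were 2 and 4. Without cell H5 the number of higher members was 17, and without any other single cell it did not move by more than 1.5 times.

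Genes of the pentose phosphate pathway and redox control held the most lower members, 11 of 29, with 1 higher and a median of -1.52. Gsr, which regenerates reduced glutathione, was listed at 0 in all 6 C1qb-positive cells and present in 12 of 14 others, with a median of 189 FPKM. Mgst1, a membrane glutathione transferase, was at 0 in all 6 and present in 11 of 14 with a median of 347 FPKM. Prdx2, Prdx5 and Prdx6, which break down peroxide, had differences of -4.49, -4.18 and -2.48. Prdx6 had -1.92 without C6. Prdx1, of the same family, was higher by 2.17, at medians of 1146 and 766 FPKM, and by 1.56 without A6. The thioredoxin gene Txn1 and its reductase Txnrd1 had differences of -2.19 and -2.53, and mitochondrial Sod2 one of -2.67. Txn1 had -1.11 without F1. Slc7a11, the cystine importer that feeds glutathione, did not exceed 0.32 FPKM in C1qb-positive cells and was present in 9 of 14 others. Taldo1 and Pgd, enzymes of the pentose phosphate pathway, had differences of -3.44 and -2.29, and Pgd had -1.82 without B9. Gpx1, the main glutathione peroxidase, was high in both classes, at medians of 3787 and 5941 FPKM.

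Glycolysis had 1 higher and 5 lower of 19. Pgk1 was at 0 in all 6 C1qb-positive cells and present in 7 of 14 others, Pkm was present in 2 of 6 and 10 of 14, and Eno1 in 4 of 6 and 13 of 14. The difference of Eno1 was -1.97 without B4. Slc16a3, the lactate exporter, and Slc2a6, a sugar transporter, were at 0 in all 6 and present in 7 and 8 of 14. Gapdh was counted as higher, by 2.26, with 6 of 6 and 10 of 14 cells carrying it. Its medians were 525 and 628 FPKM, and the difference of medians was -0.25 on the log2 scale. Without A6 the difference of its means was 1.75. Ldha, which makes lactate, had a difference of -0.33.

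The TCA cycle had 4 higher and 2 lower of 24. Idh3g, Sdhd, Sdha and Mdh1 were higher by 4.02, 3.97, 3.34 and 2.14, and each was present in 3 or 4 of 6 cells and in 2 to 5 of 14. Mdh1 had a difference of 1.26 without B4. Acod1, which diverts the cycle into the antimicrobial itaconate, was at 0 in all 6 cells and present in 5 of 14 at up to 308 FPKM, and Ogdh had a difference of -2.44. The nuclear genes of oxidative phosphorylation had 4 higher and 8 lower of 30. Uqcrq was present in 1 of 6 and 10 of 14 cells, and Cox7c in 3 of 6 and 12 of 14, with differences of -5.61 and -4.08. Uqcrc2, Ndufa2, Atp5b and Atp5g2 were higher by 2.90, 2.57, 2.01 and 2.01. Atp5b had a difference of 1.404 without C11 and Atp5g2 one of 1.27 without F1. Of 13 genes encoded in mitochondria none of those that passed the filter was higher, mt-Nd6 and mt-Nd5 were lower, and the median was -0.14. The difference of mt-Nd5 was -1.396 without C6.

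Lipid and cholesterol handling had 8 higher and 2 lower of 40, of which 20 passed the filter. Acadm, Ch25h and Hadh, present in 2 of 6 cells each, were past a difference of 2 but did not pass it. Their differences were 1.56 without F1, 1.62 without B4 and 1.11 without B4. Apoe, the lipoprotein that carries cholesterol out of macrophages, was present in 6 of 6 cells at 4306 to 29000.3 FPKM (median 13592) and in 12 of 14 at up to 5419 FPKM (median 1227), a difference of 5.27. The classes overlapped through C7, at 4306, and D4, at 5419. Lpl, which releases fatty acids from lipoproteins, was present in 6 of 6 and 10 of 14 cells, and its medians were 25.2 and 1.6 FPKM. Lipa, the acid lipase of lysosomes, Abca1, a cholesterol exporter, and Plin2, which coats lipid droplets, were higher by 3.66, 2.52 and 2.17. Abca1 had a difference of 1.51 without H5 and Plin2 one of 1.68 without H8. Hpgds, the prostaglandin D synthase, was present in 3 of 6 and in none of the 14 at 1 FPKM, and Pltp and Ptgs1, present in 2 and 3 of 6 cells and in 1 of 14 each, had differences of 2.13 and 2.10. Both calls ended without F1, at 0.81 and 1.33. Apoc2, a cofactor of Lpl, was lower, present in 1 of 6 and 8 of 14 cells, as was Ptgs2, the inducible cyclooxygenase, with a difference of -3.04.

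In iron and heme handling, Blvrb, which acts on a product of heme breakdown, was present in 4 of 6 cells at 324 to 1147 FPKM and listed at 0 in all 14 others. Blvra, present in 2 of 6 and 1 of 14 cells, and the iron transporter Slc11a1, present in 3 of 6 and 3 of 14, each had a difference of 2.49. Neither held: Blvra had 1.30 without B4, and Slc11a1 had 1.66 without C6. Hp was the lower member of this list of 18, of which 9 passed the filter. The ferritin genes Ftl1 and Fth1 were high in all 20 cells, with differences of 0.10 and -0.76. Lysosomal proteases and hydrolases had 6 higher and 1 lower of 31, and their summed level was 16049.6 to 36210.2 FPKM (median 20536) against 4877 to 19210.3 FPKM (median 13625). Cst3, which inhibits the cathepsins, had medians of 9727 and 3240.1 FPKM and a difference of 2.19, which was 1.63 without H4. Hexa, which helps degrade glycolipids, was higher by 2.13 and the membrane protein Lamp2 by 2.34. Hexa had a difference of 1.21 without B4 and Lamp2 one of 1.89 without H5. Gusb was at 0 in all 6 and present in 5 of 14. Amino acid, nucleotide and NAD metabolism had no higher member and 4 lower of 28, of which 12 passed the filter. Slc3a2, the partner chain of Slc7a11, had a difference of -3.53, the polyamine enzyme Sat1 one of -3.46, the nucleotide hydrolase Samhd1 one of -3.15 and Nampt, which makes NAD, one of -2.50.

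**Figure D3:**
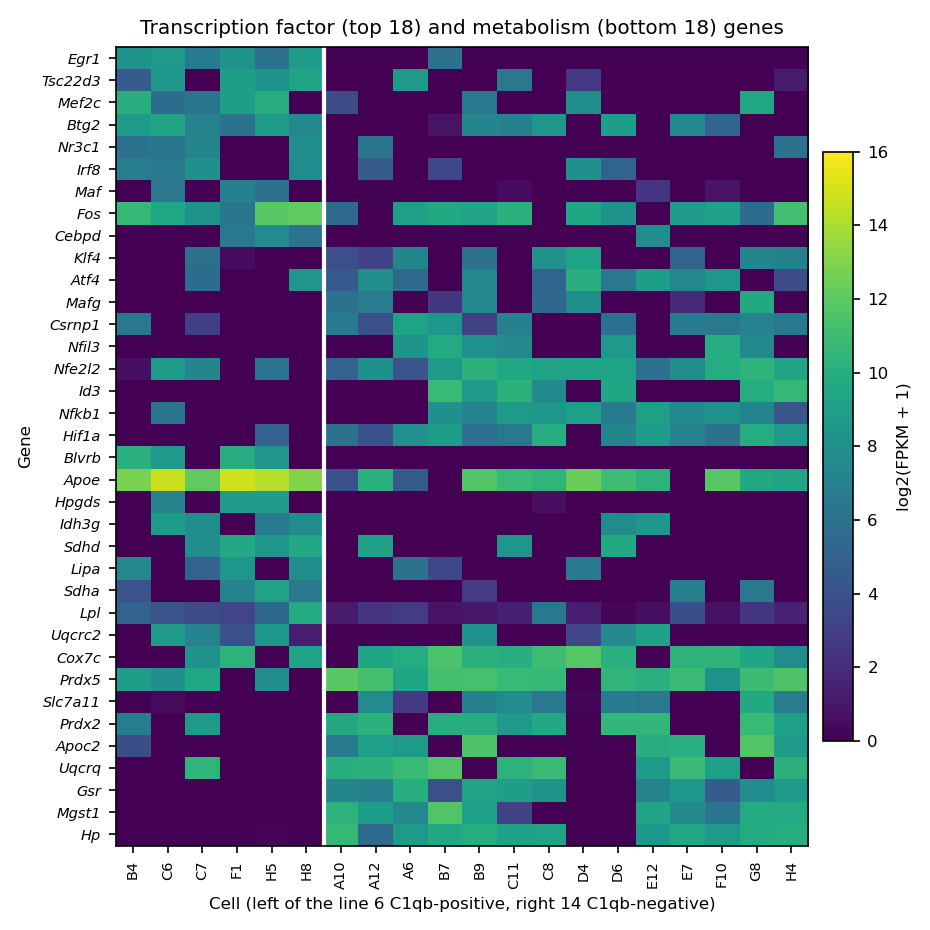
log2(FPKM + 1) of transcription factor genes (upper 18 rows) and metabolic genes (lower 18 rows) in the 6 C1qb-positive cells (left of the white line) and the 14 C1qb-negative cells (right of it). Rows are, of the genes reported here, the 9 with the largest differences in each direction, so the contrast is by choice; Egr1 fills the left side and 1 cell of the right, and Gsr and Mgst1 are dark in all 6 cells on the left.

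**Figure D4:**
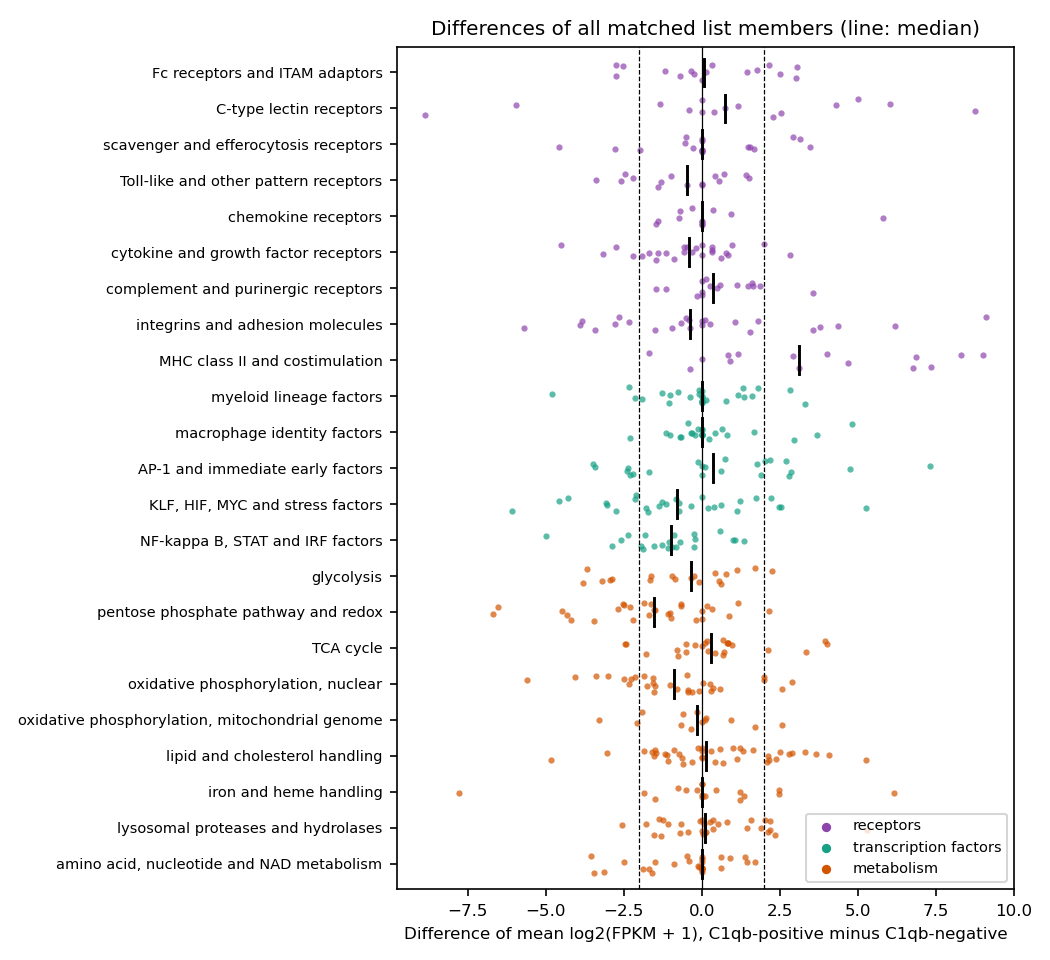
Difference of mean log2(FPKM + 1), C1qb-positive minus C1qb-negative (x axis), for every matched member of each list (y axis), with 1 point a gene, a black line at the list median and dashed lines at -2 and 2. The MHC class II list has its median at 3.11 and the pentose phosphate and redox list at -1.52, and most other lists are centred within 1 of 0.

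Secreted factors had 6 higher and 7 lower of 34. Cxcl16, Ccl2 and Ccl12, chemokines for T cells and monocytes, were higher by 5.83, 4.09 and 3.01, and Pf4, Cst3 and Igf1 made up the rest. Ccl12 had a difference of 1.92 without C7. Igf1, a growth factor of repair macrophages, was present in B4, F1 and H5, at 74.3, 1103 and 80.7 FPKM, and at 0 in all C1qb-negative cells. Gas6, the ligand of Axl and Mertk, was present in 2 of 6 cells and at 0 in all 14, too few to pass the filter. Besides Il1b and Fn1, the lower members included Thbs1, which encodes thrombospondin and was at 0 in all 6 cells, the cytokine Il6, also at 0, and the chemokines Cxcl2, Ccl3 and Ccl6, with differences of -3.01, -3.78 and -2.96. Cxcl2 had -1.75 without B4, Ccl6 had -1.59 without F1 and Il6 had -1.56 without H4. For Ccl3 the highest single value lay in a C1qb-positive cell, at 28754 FPKM, although 4 of the 6 were below 1 FPKM.

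The 6 cells were not alike. F1 combined the highest Pf4, Mrc1, Apoe, Cd81 and Igf1 of the 6 with Folr2 and Stab1, had Ccr2 at 0 and had the lowest H2-Aa, H2-Eb1, H2-Ab1 and Cd74. Its summed MHC class II and costimulation level was 3916 FPKM, against a median of 104069 FPKM over the 6. C7 had the lowest Lyz2, C1qa, C1qb and Cd81 of the 6, no Pf4, Mrc1 at 0.22 FPKM, the most genes, 3523, and Gngt2 at 1099 FPKM, a gene present in all 14 C1qb-negative cells. C7 also carried 6 of 15 cell cycle genes, Mki67 among them at 112 FPKM, and the B cell genes Cd79b and Ms4a1 at 97.5 and 54.6 FPKM. B4, C6, H5 and H8 had H2-Aa at 12057 FPKM or more and Pf4 at 759 FPKM or more. Ighm, the immunoglobulin mu chain, was present in all 6, at 193 to 1045 FPKM (median 447), and in D6 alone among the others, at 508 FPKM. The other 7 B cell markers were absent from 5 of the 6 at 1 FPKM. The part of other cells or of doublets in these values was not tested.

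Of the C1qb-negative cells, D6 held the most of the 15 leading high genes, and it is described because of these values. It carried Mrc1, Stab1, Tmem176a, Ighm, Axl at 156 FPKM and H2-Aa, and had Plac8 and Ly6c2 at 0. It also had S100a4 at 804 FPKM, Clec4e at 94.5 FPKM, the lowest of the C1qb-negative cells, and Il1b at 13228 FPKM, the highest of all 20. C1qb was listed at 0 in D6.

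Of 10 epithelial genes 9 were found in no Lyz2-high cell. The other, Hopx, was at 0 in all 6 C1qb-positive cells and present in 7 of 14 C1qb-negative cells, at 143 to 975 FPKM. Of 10 T and NK cell genes 9 were in no cell, and Cd4 was found in F1 alone, at 129 FPKM. Of 7 endothelial genes 5 were in no cell, no C1qb-positive cell reached 1 FPKM of any, and D4 carried Vwf at 609.97 FPKM and Pecam1 at 120.2 FPKM. Of 10 dendritic cell genes 6 were in no cell, and the 6 C1qb-positive cells held 0 or 1 of them. Of 11 neutrophil genes 5 were in no cell. C1qb-positive cells held 0 to 3 at a summed level of up to 319 FPKM, from Csf3r at 189 FPKM and Mmp9 at 129 FPKM in F1. C1qb-negative cells held 1 to 4 at up to 1768 FPKM. Of their neutrophil genes, S100a8 was at 1594 FPKM in A10, 461 in H4 and 131 in A6, and Mmp8 at 398 FPKM in B7 and 349.85 in H4. Cxcr2 did not exceed 1.35 FPKM in C1qb-positive cells and 9.74 FPKM in the others. The part of other cells in the class differences was not tested.

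**Figure D5:**
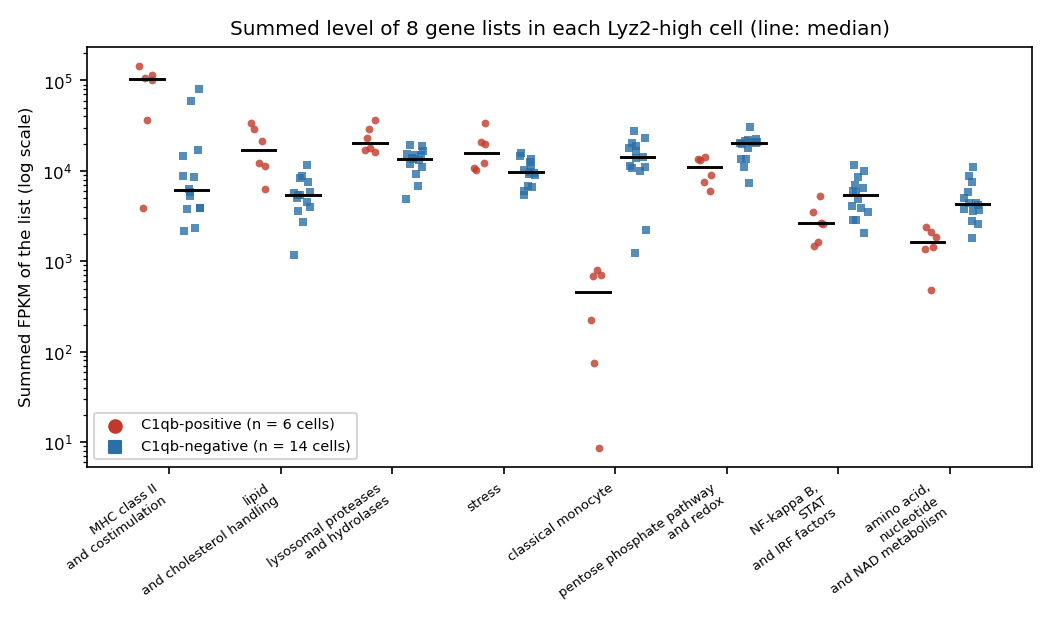
Summed FPKM (y axis, log scale) of 8 gene lists (x axis) in each C1qb-positive cell (circles, 6) and C1qb-negative cell (squares, 14), with a black line at the class median. The classical monocyte list shows the widest gap of the 8, with medians of 459 and 14091 FPKM, while F1 lies at 3916 FPKM among the MHC class II values.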

How the data were processed

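The data are single-cell RNA-seq of 31 libraries, 1 cell each. Per the labels' protocols, single cells were captured on the Fluidigm C1 system, SMARTer chemistry amplified the cDNA and the Nextera XT kit built libraries that keep no strand, so overlapping and antisense genes cannot be told apart. The tools named are RSEM, Trimmomatic and CASAVA 1.8, and the build GRCm38, per the submitters' processing notes. Aligner and annotation release were not given in the sources used here. FPKM values, scaled to transcript length and library size, were deposited by the authors together with expected counts, RSEM's estimate of reads per gene. No molecular identifiers were used, so intervals cover counting error over cells only. The count table held 44 further columns that matched no sample and were not used.

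Of 47069 genes, 46488 had a symbol in the gene name table. Coordinates are 1-based, from GENCODE on GRCm38. Cells were split by the minimums given in the report. Presence means 1 FPKM or more. The pseudocount was 1, and genes present in at least 3 of the 20 cells formed the background. No doublet caller was run on so few cells, and no 2 Lyz2-high libraries were identical. Python 3.11.15, pandas 2.3.3, numpy 2.4.6 and scipy 1.17.1 were used, and the calculation was tested on simulated data.

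The 38 lists named 662 genes, of which 660 matched. The members and lists were chosen with earlier results of these data known. Named genes are the 15 with the largest difference in each direction among protein-coding genes present in at least 75% of the higher class, every list member past a difference of 2 in the receptor, transcription factor, metabolism and secreted lists or otherwise the top 2 of a list, the sort and split genes, up to 3 members per list found in no cell, and the stress and other cell type markers present in most cells of a class. Genes named beyond this rule (Spi1, Cd14, Ldha, Mertk, Folr2, Stab1, Gpx1, the ferritin genes, Col14a1, Rpl37a, Mki67, Cd79b, Ms4a1, Hopx, Cd4, Vwf, Pecam1, Csf3r, Mmp8, Mmp9, S100a8 and Gm9843) and the single cells described were picked after their values were seen. Some genes that meet the rule are not reported here. The alternatives were other minimums of C1qb and Lyz2, other pseudocounts, filters and scalings, counts thinned to equal depth, medians in place of means, and each cell left out in turn.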

Additional observations from a re-analysis of the deposited data

Results flagged for a closer look

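Mrc1 in cell F1 was 1887 FPKM and stood far from the other 5 C1qb-positive cells, of which the next had 386 FPKM. The gap was set against Dixon's limit for 6 values, which chance passes in about 1 of 20 groups of normally distributed values. It was taken on FPKM and not on log2 values, so that rate need not hold here and the flag depends on the scale. In all, 15 measures of the C1qb-positive cells were compared with the limit at both ends. These were depth, quality and stress measures, Lyz2, the C1q genes, Mrc1 and the sort genes Ptprc, Csf1r and Adgre1. The other named genes were not compared with it. Cell F11, below the Lyz2 minimum and outside the comparison, carried C1qb at 258 FPKM from 257 estimated counts, with Mrc1 at 50.3 FPKM and Lyz2 listed at 0.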

How the results depend on the processing

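All values rest on 6 and 14 cells of 1 group. A C1qb minimum of 5 or 50 FPKM, and a requirement that nuclear coding genes take 80% of counts, gave the same cells and counts. With pseudocount 0.1 in place of 1, 1110 genes were higher and 1083 lower, and 59 metabolic genes were lower. With pseudocount 10, 191 genes were higher and 181 lower. The receptor members lower were then 7, the transcription factors 7 higher and 5 lower, and the metabolic genes 8 higher and 17 lower. With counts thinned to the shallowest cell and scaled to 10000, a scale on which low genes sit under the pseudocount, 38 genes were higher and 33 lower, with 12 and 3 receptors, 1 and 1 transcription factors and 2 and 4 metabolic genes. A Lyz2 minimum of 100 FPKM added 5 C1qb-negative cells and gave 814 genes higher and 441 lower, with 38 and 13 receptors, 20 and 9 transcription factors and 37 and 18 metabolic genes, so that in transcription factors and metabolism more members were then higher than lower. A minimum of 10000 FPKM gave 553 genes higher and 812 lower. The minimum of 100 FPKM reversed the log2 differences of Atp5e to 0.64 and Cox8a to 0.00144. Medians in place of means reversed Gapdh to -0.25. The cause of these shifts was not tested. The 5 cells added at 100 FPKM had 32.7% to 61.4% of counts on nuclear coding genes. All cells of the main comparison had 87.4% or more. Leaving out each cell in turn gave shares of 26.3% to 31.6%, 585 to 726 genes higher and 563 to 708 lower, 28 to 36 and 21 to 25 receptors, 14 to 18 and 18 to 26 transcription factors, and 17 to 27 and 33 to 46 metabolic genes, the 17 being without H5. Of 201 named genes past a difference of 2, between 174 and 196 kept it without any 1 cell, 134 kept it through every omission, and 100 kept it with pseudocount 10 and 47 with thinned counts. No paired analysis was possible because all cells belong to 1 group.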
